A study of Mus musculus with 22 samples.

Results

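Interferon-stimulated genes are the genes that a cell switches on when an interferon reaches its surface. A list of 39 of them, given by gene name, was followed through the livers of neonatal mice given an AAV9 vector for *ST3GAL5*, the human gene of GM3 synthase. Every one of the 39 names was found among the 55291 genes of the count table. The list held 21 antiviral effectors, 9 interferon-induced GTPases, 8 regulators and 1 gene of antigen presentation, *Tap1*. All mice were male WT C57BL/6 pups, injected into a vein on postnatal day 1, and the labels place liver collection 36 hours later. Controls received PBS or a capsid with no genome (AAV9.empty), and 4 livers were sequenced for each. Another 4 livers came from pups given rAAV9.CB.EGFP (AAV9.EGFP), in which the ubiquitous CB promoter drives a fluorescent protein. Of the therapeutic designs, rAAV9.CB.ST3GAL5 (rAAV9-ST3GAL5.v1, 3 livers) carried the human cDNA behind the same promoter. In rAAV9.Syn1.ST3GAL5.miR122BS (rAAV9-ST3GAL5.v2, 4 livers), the neuronal Syn1 promoter was combined with target sites of the hepatocyte microRNA miR-122. The label of the last group, rAAV9.CB.ST3GAL5.E332K (the E332K vector, 3 livers), adds E332K to the name of rAAV9-ST3GAL5.v1. The study uses E332K elsewhere as the name of a variant of *ST3GAL5*, but the vector itself was not described in the sources used here. The labels do not say which pups were littermates, so p-values measure only how far these livers spread.

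Type I interferons signal through a receptor whose kinases activate a factor that contains STAT2 and IRF9 and binds the interferon-stimulated response element (ISRE) in the promoters of its targets. Type II interferon, made mainly by T and NK cells, acts through the gamma-activated sequence (GAS) and induces IRF1, which itself binds ISRE-like sites. The products of these genes degrade viral RNA, stop translation, attack the vacuoles of intracellular pathogens or load peptides for T cells, and neonatal liver, which still houses blood formation, holds hepatocytes, Kupffer cells and leukocytes that can all respond.

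The promoters of 31 members, from 250 bases before to 50 bases after the start, were present in the RefSeq table of GRCm38.p6. It held none for *Oas2*, *Mx1*, *Mx2*, *Usp18*, *Ifi27*, *Iigp1*, *Parp9* and *Parp14*. An ISRE core, searched as GAAANNGAAA on either strand, stood in 17 of these 31 promoters (54.8%), against 3.99% of the 27025 genes in the table. A GAS core, TTCNNNGAA, which reads the same on both strands, stood in 12 (38.7%), against 9.55% of all genes. Both cores occurred in 8 members and neither in 10, and the 2 could overlap. These matches describe letters and not binding. The stretches below are printed for members on which the results turn, 5′ to 3′ on the strand of the gene, with every base of a match in capitals. They are *Gbp2* (plus strand, chr3:142620596-142620621), *Gbp3* (plus, chr3:142559991-142560022), *Gbp7* (plus, chr3:142530275-142530300), *Isg15* (minus, chr4:156200867-156200904), *Oas1a* (minus, chr5:120907526-120907553), *Bst2* (minus, chr8:71537579-71537616), *Irf1* (plus, chr11:53769916-53769940), *Igtp* (plus, chr11:58199503-58199539), *Ifit3* (plus, chr19:34583365-34583424) and *Ifit1* (plus, chr19:34640777-34640821).
Gbp2: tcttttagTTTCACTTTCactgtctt
Gbp3: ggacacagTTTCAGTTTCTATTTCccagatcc
Gbp7: gtgtgcagTTTCAGTTTCagttctcc
Isg15: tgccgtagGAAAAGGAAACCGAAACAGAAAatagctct
Oas1a: cttctcggGAAATGGAAACTGAAAatct
Bst2: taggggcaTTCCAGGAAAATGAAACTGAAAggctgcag
Irf1: agcctgatTTCCCCGAAatgatgag
Igtp: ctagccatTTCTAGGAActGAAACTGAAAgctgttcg
Ifit3: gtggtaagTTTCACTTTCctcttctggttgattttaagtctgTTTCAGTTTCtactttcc
Ifit1: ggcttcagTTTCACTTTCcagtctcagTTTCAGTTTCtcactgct
The 3 guanylate-binding protein genes and *Ifit1* and *Ifit3* carried the ISRE core on the strand opposite to the gene. *Irf1* carried a GAS core alone, while in *Bst2* and *Igtp* a GAS core lay beside or within the ISRE stretch. *Gbp7* and *Oas1a* also held GAS cores (2 and 1), which the printed stretches do not contain.

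The 22 libraries held 17164491 to 24305782 counts, and levels are given as CPM, the count scaled to a library of fixed size, with TMM factors over all libraries. The 8 hepatocyte markers analysed were abundant in every liver. Their summed level was 101150 to 121705 CPM in the AAV9.empty livers, 70470 to 81334 CPM for rAAV9-ST3GAL5.v1 and 80285 to 92468 CPM for the E332K vector. One library stood apart in the genes described here: replicate 2 of rAAV9-ST3GAL5.v1. Results that include it are therefore given with and without it. It was singled out by its levels in these same genes, so SEs and p-values of fits without it depend on that choice. The transcript *Gm47283* was at 0 CPM in all 3 rAAV9-ST3GAL5.v1 livers and in 6 others and at 10.1 to 30.2 CPM in all E332K livers, and its part in the comparison of these groups was not tested.

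In AAV9.empty livers, the members were expressed over a wide range. On the length-corrected scale of TPM, the share of transcripts in a library, *Ifitm3*, which blocks the entry of enveloped viruses, was the most abundant at 557 ± 42.0 TPM (SD, n = 4). It was followed by *Bst2*, the tetherin that holds budding virus at the membrane, at 166 ± 23.2 TPM, and by *Isg15*, a ubiquitin-like modifier, at 145 ± 29.9 TPM. *Bst2* and *Isg15* did not differ beyond their spread. The lowest members were *Ifi44* at 1.16 ± 0.195 TPM and the *Mx1* GTPase at 1.60 ± 0.780 TPM, which overlapped in spread. The annotation types *Mx2* as a polymorphic pseudogene, so its RNA need not stand for a working protein. *Ifit3* and *Oas1a* shared 61.8% and 68.8% of their 31-base words with *Ifit3b* and *Oas1g*, so their levels depend on how RSEM divided reads among the copies. *Igtp* and *Irgm2* overlap on the same strand in the annotation, and *Parp9* and *Dtx3l* overlap on opposite strands, which the library kit does not distinguish.

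The groups were first set side by side by the median of the 39 members in each library, on the log2 scale relative to the mean of AAV9.empty. The mean of these medians was −0.06 ± 0.23 (SD, n = 4) for PBS, −0.16 ± 0.26 (n = 4) for AAV9.EGFP and −0.18 ± 0.28 (n = 4) for rAAV9-ST3GAL5.v2, and none of these differed from AAV9.empty (−0.00 ± 0.12, n = 4) beyond the spread. By this median the 3 E332K livers lay close together at −0.71, −0.65 and −0.70. Every other liver was higher, the nearest being replicate 1 of rAAV9-ST3GAL5.v2 at −0.54. The E332K livers were less alike by the median of the antiviral effectors alone, at −0.70, −0.74 and −1.33, with replicate 3 the lowest. The rAAV9-ST3GAL5.v1 livers were the most unequal, at 0.06, 2.33 and −0.28. The heat map of the 39 genes in 22 livers shows this gap as a single column.

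**Figure D1:**
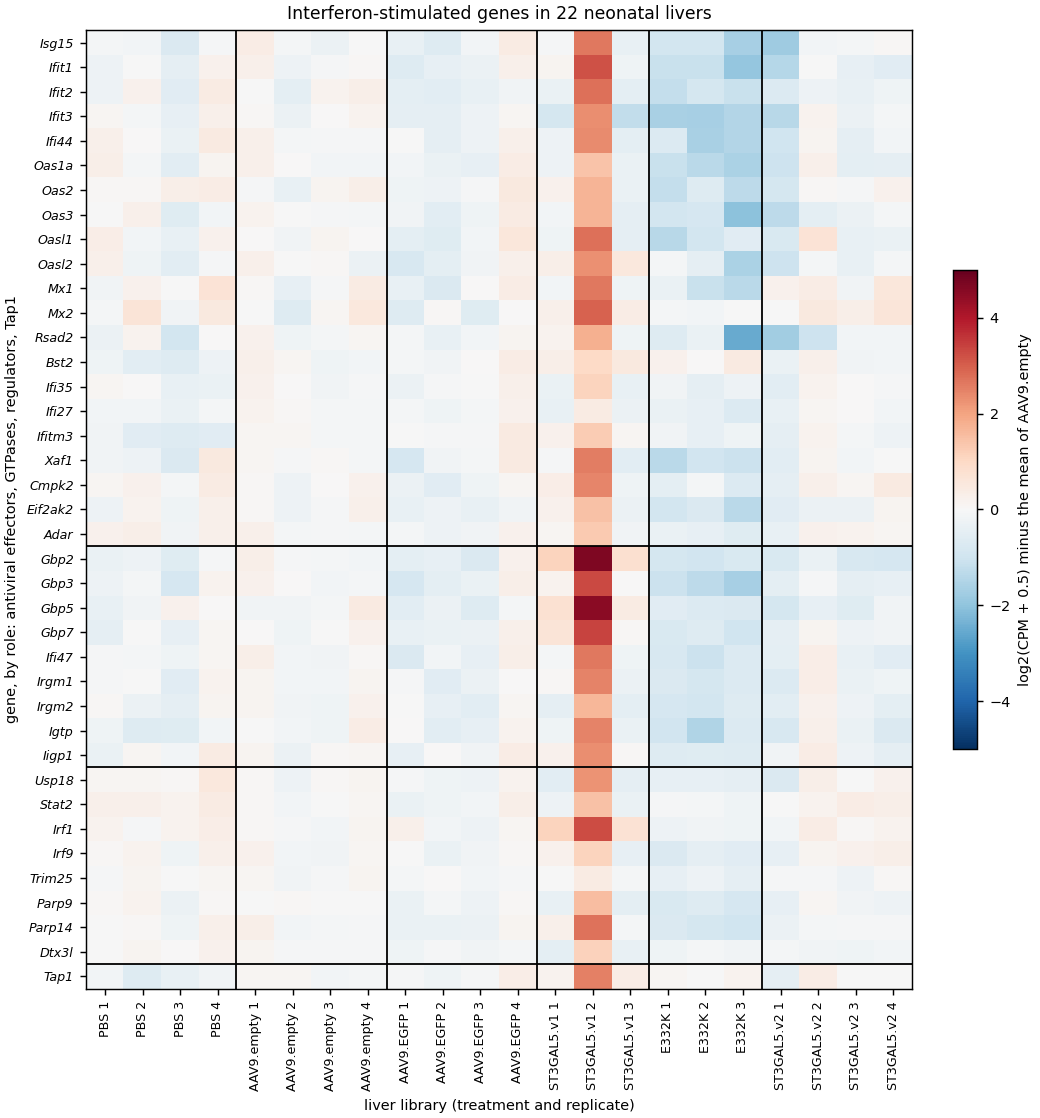
Each cell is log2(CPM + 0.5) of 1 gene (rows, grouped by role) in 1 liver (columns, grouped by treatment) minus the mean of the AAV9.empty livers. Replicate 2 of rAAV9-ST3GAL5.v1 is the highest of the 22 livers for 39 of 39 genes, and the 3 E332K columns are low for most genes.

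In replicate 2 of rAAV9-ST3GAL5.v1, all 39 members reached their highest level of the 22 livers, where 15.2% of all genes tested did. Guanylate-binding proteins, which attack the membranes around intracellular pathogens, were among the furthest apart, *Gbp5* and *Gbp2* ahead of all other members. *Gbp2* was at 48.2 CPM in replicate 1, 564 CPM in replicate 2 and 38.3 CPM in replicate 3, against 19.9 to 26.7 CPM in AAV9.empty. *Gbp5* was at 7.72, 110 and 5.93 CPM, against 3.77 to 6.02 CPM. For *Gbp2*, replicates 1 and 3 also lay above every control, while for *Gbp5* replicate 3 fell within the control range. Among antiviral effectors, *Isg15* was at 53.9, 355 and 43.7 CPM against 46.3 to 73.7 CPM in AAV9.empty. *Ifit1*, which binds foreign RNA caps, was at 11.6, 99.8 and 9.13 CPM against 8.89 to 12.8 CPM. Replicates 1 and 3 of *Ifit1* lay within the range of the controls, and replicate 3 of *Isg15* just below it. *Iigp1*, an immunity-related GTPase, was at 191, 816 and 172 CPM against 134 to 182 CPM.

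Relative to the mean of replicates 1 and 3, replicate 2 was at least 2-fold higher for 36 of the 39 members, against 3.01% of all genes. The median difference over the members was 2.32 on the log2 scale, where that of all 15873 genes was −0.02. It ran from 0.45 for *Trim25*, a ubiquitin ligase of the RNA-sensing pathway, to 3.93 for *Gbp5*, a 15.2-fold difference. *Bst2* (0.59) and *Ifi27* (0.74) were the other 2 members below 2-fold. By role, the median was 2.82 for the 9 GTPases, 2.0 for the 21 antiviral effectors, 1.87 for the 8 regulators and 2.26 for *Tap1*, which pumps peptides to MHC class I. It was 2.62 for the 17 members with an ISRE core in the promoter, 1.93 for the 12 with a GAS core and 2.32 for the 10 with neither. A single liver gives no test, so these values describe that library.

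Summed markers of other cells did not set replicate 2 apart in the same way. Summed T and NK cell markers were at 115, 117 and 130 CPM in replicates 1 to 3, against 50.2 to 69.9 CPM in AAV9.empty, with replicate 2 between the others. Single markers of this list, named after their values had been seen, went both ways. Replicate 2 was the highest of all livers for *Gzmb* (26.0, 36.8 and 29.9 CPM), *Prf1*, *Ncr1* and *Il2rb*. It was the lowest of the 3 for *Gzma* (44.8, 30.3 and 53.5 CPM), *Klrb1c*, *Eomes*, *Tbx21* and *Cd3d*. The 12 neutrophil markers summed to 2896, 2932 and 2651 CPM and the 5 monocyte markers to 216, 227 and 234 CPM. Summed Kupffer cell markers were higher in replicate 2, at 785, 1016 and 667 CPM, but inside the AAV9.empty range of 824 to 1173 CPM. Most of that difference was in *Marco* (284, 470 and 163 CPM), while *Vsig4* was lowest in replicate 2 (17.3, 10.1 and 14.2 CPM). B cell markers (74.7, 128 and 71.5 CPM, AAV9.empty 62.4 to 119 CPM) and plasmacytoid dendritic cell markers (37.7, 51.5 and 31.4 CPM, AAV9.empty 24.2 to 44.8 CPM) were highest in replicate 2 of the 3. None of these lists had all of its markers at 0 in a rAAV9-ST3GAL5.v1 liver, and the part of cell content in the differences was not tested. In whole liver, fewer cells of a type and less RNA per cell cannot be told apart.

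**Figure D2:**
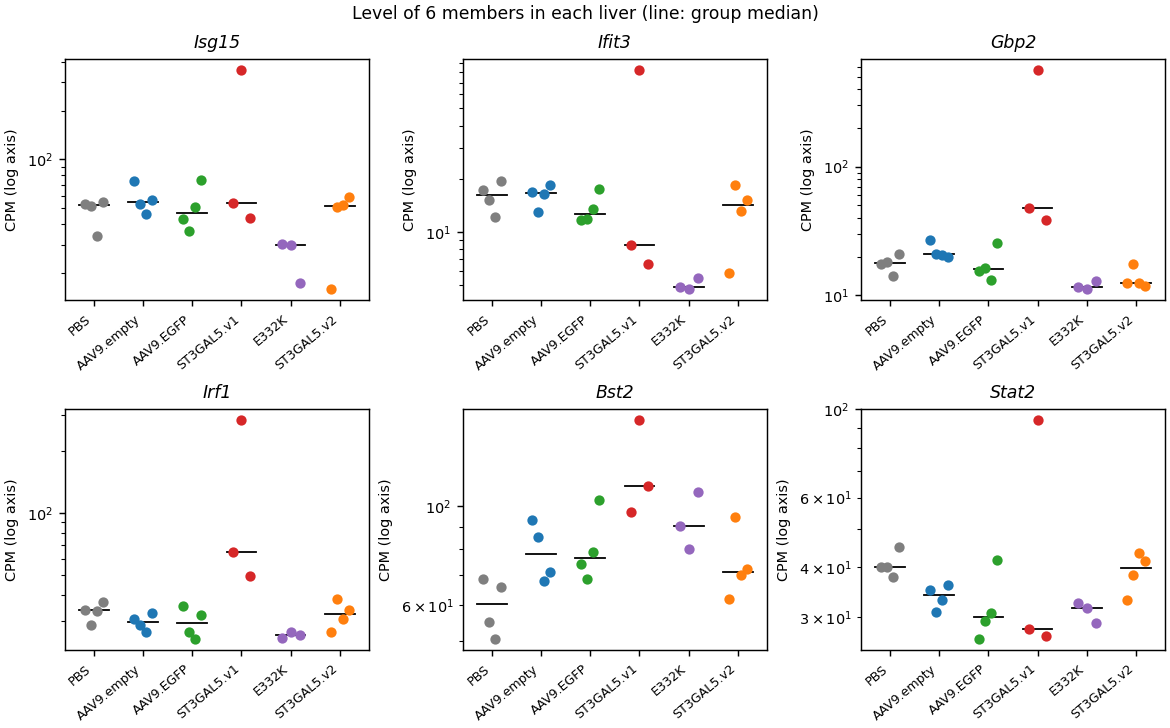
Each point is the level of 1 gene in 1 liver in CPM on a log axis, by treatment, and the line is the group median. Replicate 2 of rAAV9-ST3GAL5.v1 is the top point in all 6 panels. *Gbp2*, *Irf1* and *Bst2* are above the AAV9.empty livers in all 3 rAAV9-ST3GAL5.v1 livers, while *Ifit3* and *Stat2* are below them in the other two.

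Taking all 3 livers, rAAV9-ST3GAL5.v1 raised 6 of the 39 members relative to AAV9.empty and lowered none, where 13.8% of all genes were called higher and 14.3% lower. The count of higher members was thus near the share over all genes. The 6 were *Gbp2*, *Gbp5*, *Gbp7*, *Oasl2*, *Bst2* and *Irf1*. *Gbp2* rose 9.94-fold (log2 fold change 3.31, SE 0.82, adjusted p = 0.0157, edgeR). *Gbp5* rose 9.42-fold (3.24, SE 0.91, adjusted p = 0.0268) and *Gbp7* 4.41-fold (2.14, SE 0.66, adjusted p = 0.0386). These 3 genes stand together with *Gbp3* on chromosome 3 (GRCm38). *Irf1*, the transcription factor that type II interferon induces, was at 64.5, 284 and 49.5 CPM against 26.6 to 32.6 CPM, and its groups did not overlap. It rose 4.53-fold (2.18, SE 0.51, adjusted p = 0.0127). *Oasl2*, an oligoadenylate synthetase-like protein, rose 2.56-fold (1.36, SE 0.43, adjusted p = 0.0412). *Bst2* rose 1.54-fold (0.63, SE 0.17, adjusted p = 0.0231). The median member differed by 1.27 and the median of all genes by 0.02 on the log2 scale, and the median SE of the members was 0.51. The median member differed by 0.67 with the replicate number as a block, 0.72 on log2(TPM + 1) and 0.75 on log2(TPM + 0.1). With DESeq2 it was 0.63, but over only the members to which DESeq2 gave a p-value, so it is not the median of the same 39. The count ranged from 1 to 28 when single livers were left out. It was 1 without replicate 3 of AAV9.empty, 2 without replicate 4 and 3 without replicate 1 or 2 of that group. It was 10 without replicate 1 of rAAV9-ST3GAL5.v1 and 28 without replicate 3.

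Without replicate 2, the same contrast (2 livers against 4) gave members that moved in both directions. Of the 39, 4 were called higher and 8 lower, against 11.3% and 12.5% of all genes, and the median member differed by −0.07. The 4 higher were *Gbp2* (log2 fold change 0.98, SE 0.13, adjusted p = 0.000617, edgeR), *Irf1* (0.95, SE 0.12, adjusted p = 0.000346), *Oasl2* (0.42, adjusted p = 0.0498) and *Bst2* (0.40, adjusted p = 0.0468). All 4 were also among the 6 of the full group. *Gbp5* (0.64, SE 0.23) and *Gbp7* (0.40, SE 0.17) were not called.

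The 8 lower members included regulators of the type I response. *Ifit3*, a partner of *Ifit1* in RNA binding, was at 8.44 and 6.62 CPM against 13 to 18.4 CPM in AAV9.empty, so that the groups did not overlap. It fell by 1.10 on the log2 scale (SE 0.17, adjusted p = 0.0013, edgeR). *Usp18*, which removes ISG15 and dampens the receptor, was at 14.8 and 15.5 CPM against 18 to 23.9 CPM and fell by 0.51 (SE 0.12, adjusted p = 0.0138). *Stat2*, the partner of IRF9, was at 28.0 and 26.8 CPM against 30.9 to 36.1 CPM and fell by 0.30 (SE 0.09, adjusted p = 0.0405). The others were *Irgm2* (fell by 0.48), the ubiquitin ligase *Dtx3l* (fell by 0.43) and its partner *Parp9* (fell by 0.42), *Ifi35* (fell by 0.36) and *Ifi27* (fell by 0.35). In replicate 2, every one of these 8 genes was above all other livers. Over the list, replicates 1 and 3 were both above all 4 AAV9.empty livers for 5 members (*Oasl2*, *Irf1*, *Bst2*, *Gbp2* and *Tap1*) and both below for 13, against 22% and 22.1% of all genes.

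**Figure D3:**
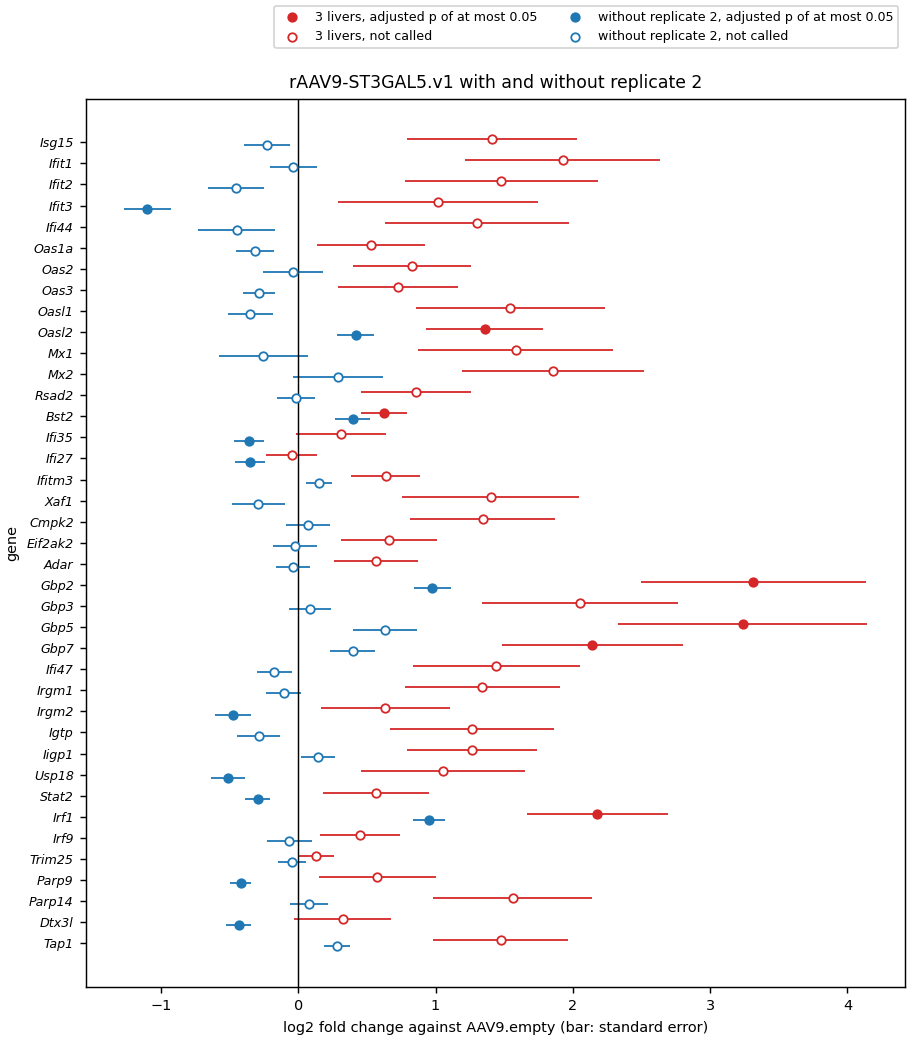
Points are log2 fold changes of rAAV9-ST3GAL5.v1 against AAV9.empty for the 39 genes with their standard errors, from all 3 livers (red) and without replicate 2 (blue), and filled points are called at an adjusted p of at most 0.05. All red points but *Ifi27* are above 0 with wide bars, while the blue points lie on both sides of 0, with 4 called higher and 8 lower.

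Livers given the E332K vector held less RNA of most members than their controls. Of the 39 members, 27 were lower than in AAV9.empty and none was higher, where 7.09% of all genes were called lower and 7.93% higher. All 3 livers were below all 4 controls for 32 members, against 13.1% of genes. The median member fell by 0.83 on the log2 scale, while the median of all genes was −0.00.

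Antiviral effectors held the largest decreases, with 13 of 21 lower. *Ifit3* was at 4.90, 4.73 and 5.47 CPM against 13 to 18.4 CPM. It was 3.24-fold lower (log2 fold change −1.70, SE 0.15, adjusted p = 1.59e-05, edgeR). *Ifit1* was at 4.60, 4.58 and 2.40 CPM against 8.89 to 12.8 CPM. The groups of both genes were well apart. *Ifit1* was 2.75-fold lower (−1.46, SE 0.22, adjusted p = 0.000936). The *Ifit* genes form a cluster on chromosome 19 (34550694 to 34650009, GRCm38), and *Ifit2* was lower as well (−1.16, adjusted p = 0.00168). Of the oligoadenylate synthetases, whose product activates RNase L, *Oas1a* was at 6.86, 5.78 and 4.85 CPM against 14 to 18.6 CPM and was 2.70-fold lower (−1.43, SE 0.16, adjusted p = 8.73e-05). *Oas2* (−1.13) and *Oas3* (−1.20) were lower too, as was the oligoadenylate synthetase-like gene *Oasl1* (−1.02). *Isg15* was at 30.1, 29.9 and 17.5 CPM against 46.3 to 73.7 CPM and was 2.23-fold lower (−1.16, SE 0.19, adjusted p = 0.00173). The remaining 5 of the 13 were *Ifi44* (−1.63), *Xaf1* (−1.26), the kinase gene *Eif2ak2* (−1.03), *Ifi27* (−0.49) and the RNA editing enzyme *Adar* (−0.46). *Rsad2*, the antiviral viperin, was at 80.4, 99.8 and 21.6 CPM against 108 to 146 CPM. All 3 of its values were below the controls, but they were far from each other and it was not called (−0.91, adjusted p = 0.0975). The other antiviral effectors that were not called were *Mx1* (−1.19), *Oasl2* (−0.61), *Cmpk2* (−0.42), *Ifi35* (−0.31), *Ifitm3* (−0.28), and *Mx2* and *Bst2*, given below.

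All 9 GTPases were lower. *Gbp3* was at 4.15, 3.44 and 2.64 CPM against 8.54 to 11.0 CPM and was 2.74-fold lower (−1.46, SE 0.18, adjusted p = 0.000308, edgeR). *Gbp2* was at 11.7, 11.2 and 12.8 CPM against 19.9 to 26.7 CPM and was 1.87-fold lower (−0.90, SE 0.12, adjusted p = 0.00052). The E332K livers differed little among themselves in both genes, and neither group overlapped its controls. The immunity-related GTPases, which mark pathogen vacuoles, followed: *Igtp* (−1.04), *Ifi47* (−0.88), *Irgm2* (−0.83), *Irgm1* (−0.80) and *Iigp1* (−0.64). *Gbp7* (−0.83) and *Gbp5* (−0.78, adjusted p = 0.0395) completed the family.

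Of the 8 regulators, 5 were lower. They were *Parp14* (−0.91) and *Parp9* (−0.76), which modify proteins with ADP-ribose, *Irf9* (−0.60), *Usp18* (−0.46) and *Trim25* (−0.38). *Parp9* was at 26.2, 28.4 and 24.8 CPM against 44.0 to 45.9 CPM (SE 0.09, adjusted p = 0.000122). The members least affected were *Bst2* at 90.2, 80.0 and 108 CPM against 68.0 to 93.0 CPM, *Tap1* (0.08, SE 0.09), *Dtx3l* (−0.17), *Stat2* (−0.13, SE 0.09), *Irf1* (−0.22, SE 0.10) and *Mx2* (−0.18). Their adjusted p ran from 0.136 for *Irf1* to 0.721 for *Mx2*, which does not show that they were equal. The levels of *Bst2* and *Tap1* overlapped those of the controls, and *Irf1* and *Dtx3l* were below all 4 of them.

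**Figure D4:**
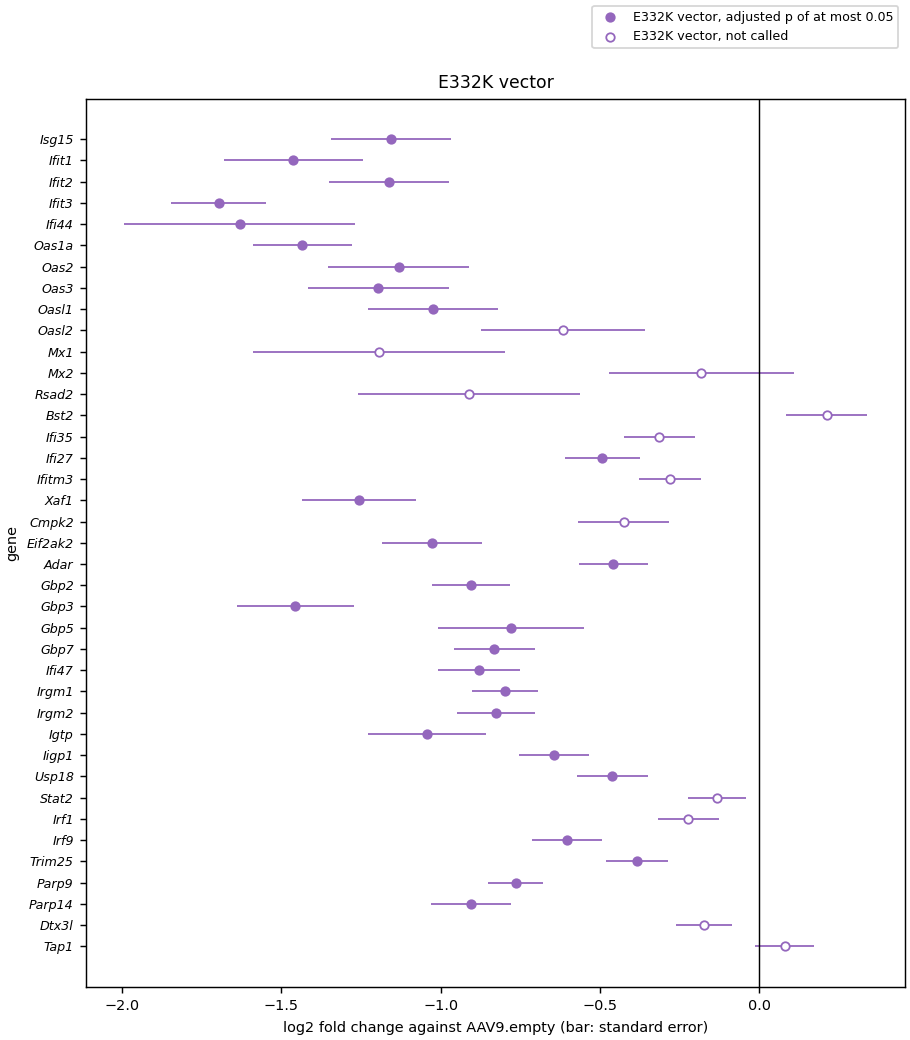
Points are log2 fold changes of the E332K vector against AAV9.empty for the 39 genes with their standard errors, and filled points are called at an adjusted p of at most 0.05. Of the 39 genes, 27 are called and lie left of 0, from −1.70 for *Ifit3* to −0.38 for *Trim25*, and only *Bst2* and *Tap1* lie right of 0.

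The counts were also taken against the other controls, with the same E332K livers. Against PBS livers, 29 members were lower and 2 higher (4.31% and 6.97% of genes), and against AAV9.EGFP livers 20 were lower (3.65% of genes). The 2 that were higher than in PBS were *Bst2* (0.64, adjusted p = 0.00645, edgeR) and *Tap1* (0.42, adjusted p = 0.0461). Leaving out single livers gave 23 to 28 lower members. With all 6 groups in 1 fit only 4 members were called, and with the same fit but without the rAAV9-ST3GAL5.v1 livers 27 were. With a required 2-fold change, 13 were called. Beside these results, summed Kupffer cell markers were 685 to 837 CPM (AAV9.empty 824 to 1173 CPM), with 2 of 7 lower, and neutrophil markers were 2140 to 2651 CPM (AAV9.empty 1765 to 1919 CPM), with 5 of 12 higher and 1 lower. T and NK cell markers were 65.2 to 100.9 CPM (AAV9.empty 50.2 to 69.9 CPM), and the part of these shifts in the result was not tested.

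The 2 vectors with the CB promoter and *ST3GAL5* were then compared with each other. With all livers, 16 members were higher for rAAV9-ST3GAL5.v1 than for the E332K vector and none lower, against 9.55% and 10% of genes. All 3 livers of the former were above all 3 of the latter for 31 members (19.9% of genes). *Gbp2* differed most, 18.7-fold (log2 fold change 4.23, SE 1.0, adjusted p = 0.0232, edgeR), followed by *Gbp5* (4.03, SE 1.11), *Gbp3* (3.52, SE 0.90) and *Ifit1* (3.40, SE 0.90). The other 12 were *Isg15*, *Oas1a*, *Oas2*, *Oas3*, *Oasl2*, *Irf1*, *Gbp7*, *Iigp1*, *Trim25*, *Parp14*, *Xaf1* and *Eif2ak2*. The count fell to 0 when any one E332K liver was left out and to 8 without replicate 1 of rAAV9-ST3GAL5.v1, and rose to 34 without replicate 3.

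Without replicate 2, 18 members were higher for rAAV9-ST3GAL5.v1 and none lower (7.54% and 8.01% of genes). *Gbp2* was 1.90 higher on the log2 scale (SE 0.15, adjusted p = 9.43e-05, edgeR), *Gbp3* 1.56 (SE 0.23, adjusted p = 0.00225) and *Gbp5* 1.43 (SE 0.23, adjusted p = 0.00383). *Ifit1* was 1.45 higher (SE 0.27, adjusted p = 0.00781) and *Isg15* 0.95 (SE 0.22, adjusted p = 0.018). *Irf1*, which was not lower in E332K livers by the test above, was 1.20 higher (SE 0.14, adjusted p = 0.000887). The SEs were several times smaller than with replicate 2 in the fit. That drop follows from leaving out a library singled out by its levels in these same genes. It left 2 livers against 3. *Ifit3*, low in both of the remaining rAAV9-ST3GAL5.v1 livers and in the E332K livers, was not among the 18.

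Against AAV9.EGFP, which shares the promoter, rAAV9-ST3GAL5.v1 raised 8 members and lowered none (12.7% and 15.1% of genes). They were *Gbp2* (3.62), *Gbp5* (3.68), *Gbp3* (2.33), *Gbp7* (2.30), *Mx2* (2.22), *Irf1* (2.17), *Oasl2* (1.62) and *Bst2* (0.58), as log2 fold changes. Without replicate 2, 3 members were higher and 2 lower (11.3% and 12.8% of genes). The 3 were *Gbp2* (1.29, adjusted p = 0.00171, edgeR), *Gbp5* (1.09, adjusted p = 0.0056) and *Irf1* (0.95, adjusted p = 0.00141), and the 2 were *Ifit3* (fell by 0.85, adjusted p = 0.00987) and *Dtx3l* (fell by 0.29, adjusted p = 0.0258). With all livers, the count was 2 without replicate 1, 2 or 3 of AAV9.EGFP, 4 without its replicate 4 and 27 without replicate 3 of rAAV9-ST3GAL5.v1.

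For the vectors without a CB-driven *ST3GAL5*, the counts of called members were near the shares of all genes. The same held for the members called higher for rAAV9-ST3GAL5.v1 against AAV9.empty, with and without replicate 2. AAV9.EGFP changed none relative to AAV9.empty by edgeR or DESeq2 (0.387% of genes were called higher and 0.0553% lower), with 4 members at an unadjusted p under 0.05, all lower. Its log2 fold changes ran from −0.46 for *Gbp5* to 0.10, with a median of −0.15. Replicate 4 of AAV9.EGFP was above all AAV9.empty livers for 19 members, while replicates 1 to 3 were below all of them for 21 to 29. The group therefore spread to both sides of its control.

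For rAAV9-ST3GAL5.v2, 1 member was lower and none higher (2.5% and 2.88% of genes). It was *Gbp2*, at 12.6, 17.5, 12.4 and 11.9 CPM against 19.9 to 26.7 CPM, with no overlap (log2 fold change −0.70, SE 0.13, adjusted p = 0.0147, edgeR). At an unadjusted p under 0.05, 8 members were lower and 1, *Stat2*, was higher. Replicate 1 was the lowest of the 4 livers for 33 of the 39 members, where 23.8% of genes had their lowest value in it, and it lay a median of 0.48 below the others on the log2 scale. In it, *Isg15* was at 15.9 CPM and *Rsad2* at 37.3 CPM, while *Isg15* was at 50.8 to 59.0 CPM in the other 3. Without replicate 2 the count of lower members was 4, with *Oas1a*, *Ifi47* and *Igtp* beside *Gbp2*.

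The empty capsid changed no member relative to PBS by edgeR (0.104% of genes higher and 0.207% lower). At an unadjusted p under 0.05, 5 members were higher and 1, *Stat2*, was lower. *Ifitm3* came nearest, at 192 to 222 CPM in AAV9.empty and 131 to 184 CPM in PBS, with no overlap (log2 fold change 0.48, SE 0.10, adjusted p = 0.0536). DESeq2 called it and *Bst2* (0.40 in both tools). Leaving out replicate 1 of PBS also brought *Ifitm3* under the threshold (0.59, adjusted p = 0.00336).

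The genes upstream of the members were then read in the same livers. Of 21 interferon genes, none passed the filter on low counts. *Ifng*, the gene of type II interferon, had 54 counts in replicate 2 of rAAV9-ST3GAL5.v1 (95% exact Poisson interval 40.6 to 70.5) and 0 to 11 counts in the other 21 livers. The 11 counts were in replicate 1 of the same vector (interval 5.49 to 19.7), and replicate 3 had 3 (interval 0.619 to 8.77). The intervals of replicate 2 and of every other liver did not meet, and they cover counting error only. The other 20 interferon genes had at most 3 counts in any liver, the 14 of interferon alpha summed to 2 counts over all livers and *Ifnb1* to 2. At this depth the type I and type III ligands were not measurable at the time of collection.

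Of 6 interferon receptor genes, rAAV9-ST3GAL5.v1 raised *Ifngr2* (log2 fold change 0.47, adjusted p = 0.00554, edgeR) and *Ifnlr1* (0.96, adjusted p = 0.0423) relative to AAV9.empty, where 13.8% of all genes were higher. *Ifngr2*, a chain of the type II receptor, was at 39.1, 39.6 and 34.9 CPM against 25.6 to 30.5 CPM, so that replicate 2 was not apart. The other chain, *Ifngr1*, named after its values had been seen, was at 85.5, 63.2 and 80.2 CPM against 66.3 to 71.4 CPM. There, replicate 2 was below the controls and the other 2 livers above them. Without replicate 2, 3 of the 6 receptor genes were called higher and none lower, against 11.3% and 12.5% of all genes. Of 11 signaling genes, 4 were higher in the same comparison, against the same 13.8%: *Jak2*, a kinase of that receptor (1.04, adjusted p = 0.00057), the phosphatase gene *Ptpn2* (0.72, adjusted p = 0.00313), *Irf5* (0.79, adjusted p = 0.011) and *Socs1*, an inhibitor of JAK kinases (3.35, adjusted p = 0.0168). *Socs1* was at 6.57, 70.3 and 4.99 CPM against 2.29 to 3.30 CPM. The same 4 were called higher without replicate 2 (*Socs1* 1.10, adjusted p = 0.00623). In E332K livers, *Irf7*, a transcription factor for the type I genes, was lower (fell by 0.62, adjusted p = 0.00129). For rAAV9-ST3GAL5.v2 the kinase gene *Jak1* was lower (fell by 0.31, adjusted p = 0.0233).

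**Figure D5:**
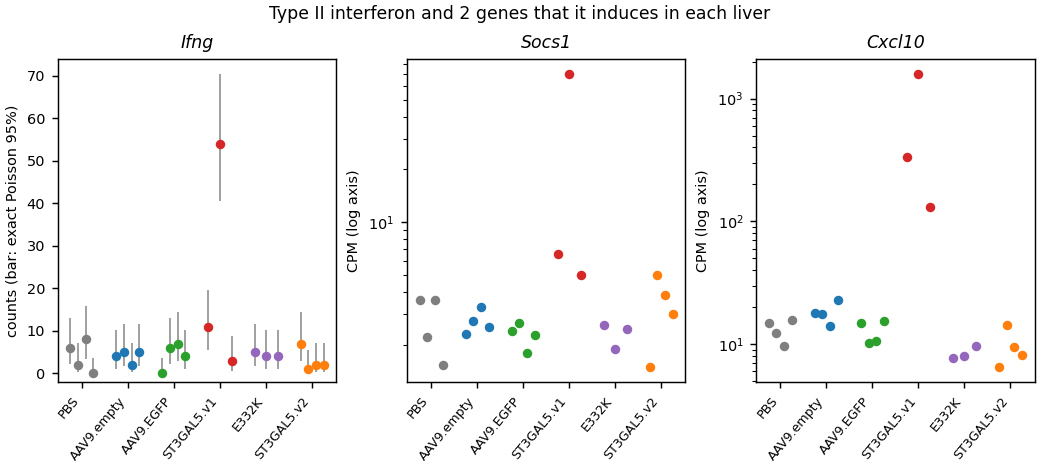
Each point is 1 liver, by treatment. *Ifng* is in counts with 95% exact Poisson intervals, and *Socs1* and *Cxcl10* are in CPM on log axes. Replicate 2 of rAAV9-ST3GAL5.v1 is the highest point in all 3 panels, and the other 2 livers of that vector are above the AAV9.empty livers for *Socs1* and *Cxcl10*.

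A further 59 interferon-induced genes that are not among the 39 were counted in the same way. Relative to AAV9.empty, rAAV9-ST3GAL5.v1 raised 12 of the 55 tested and lowered none (13.8% and 14.3% of all genes). Without replicate 2 it raised 9 and lowered 7, against 11.3% and 12.5% of all genes. *Cxcl10*, a chemokine that draws T cells, was at 332.2, 1592 and 131 CPM against 14 to 23.1 CPM, with every liver above the controls (log2 fold change 5.25, SE 0.74, adjusted p = 0.00115, edgeR; without replicate 2 3.68, SE 0.30, adjusted p = 3.38e-05). The MHC class I genes *H2-D1* (1.03, adjusted p = 0.000511) and *H2-K1* (0.99, adjusted p = 0.000686) and *Ifitm1* (1.52, adjusted p = 0.002) followed. Without replicate 2, the RNA sensor gene *Ddx58* was lower (fell by 0.77, adjusted p = 0.00031), while *H2-D1* (0.93, adjusted p = 0.000348) and *H2-K1* (0.87, adjusted p = 0.000443) were still higher.

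In E332K livers, 29 of the 54 genes tested were lower and 2 higher, against 7.09% and 7.93% of all genes. The 4 with the smallest adjusted p were *Ifi204* (fell by 1.06, adjusted p = 7.41e-05), *Dhx58* (fell by 1.20, adjusted p = 0.000134), *Rtp4* (fell by 1.27, adjusted p = 0.000186) and *Slfn5* (fell by 1.08, adjusted p = 0.000308), by edgeR. *Oas1g* and *Ifit3b*, the near copies of *Oas1a* and *Ifit3*, fell by 1.46 and 2.02. The 2 that were higher, a smaller share than over all genes, were *H2-K1* (0.60, adjusted p = 0.00145) and *H2-D1* (0.55, adjusted p = 0.00486), named after their values had been seen. For rAAV9-ST3GAL5.v2, *Cxcl10* (fell by 0.92, adjusted p = 0.0281) and *Ddx58* (fell by 0.36, adjusted p = 0.0446) were lower. AAV9.EGFP against AAV9.empty and AAV9.empty against PBS called none of these receptors, signaling genes or further interferon-induced genes.

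For the 39 members, the difference of replicate 2 from replicates 1 and 3 and the difference of the E332K vector from AAV9.empty share no library. Across the members their Pearson r was −0.50 and Spearman rho −0.50, against −0.10 and −0.05 across all 15873 genes. *Gbp3* and *Ifit1* were large in both, and *Trim25* small in both. Genes are not independent replicates, and the 39 points share their libraries and depths, so this is a description.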

How the data were processed

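mRNA-Seq of 22 livers was analysed. The authors trimmed reads with Trimmomatic, aligned them with STAR to mm10 and estimated levels per gene with RSEM and a GENCODE annotation in DolphinNext; tool versions and the GENCODE release are not given in the sources used here. They deposited RSEM expected counts (estimated counts, not scaled) and TPM, which are scaled for length and depth. Expected counts were rounded here (5.69% were not whole). Each comparison was fitted on its 2 groups in R 4.3.3 with edgeR 4.0.16 (TMM, filterByExpr, quasi-likelihood F-test, two-sided), with Benjamini-Hochberg adjustment over all genes tested, and a gene was called at an adjusted p of at most 0.05. All 39 members were tested in every comparison. Differences between single libraries used log2(CPM + 0.5). The scripts were tested on simulated data.

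Members, pathway lists and markers were chosen with earlier results of these data known. Any member could be named. Of a pathway list, every called gene was named where 6 or fewer were called and otherwise the 4 with the smallest adjusted p. The receptor genes called without replicate 2 are given as a count only. Alternatives were DESeq2 1.42.0, median-of-ratios factors, no filter, all groups in 1 fit, the replicate number as a block, limma 3.58.1 on log2(TPM + 1) and log2(TPM + 0.1) (genes averaging at least 0.1 TPM), a 2-fold minimum and leaving out each library. PBS or AAV9.EGFP as control and the fit without rAAV9-ST3GAL5.v1 were added after seeing the data. Gene positions come from GENCODE vM21 (GRCm38). No 2 libraries of the same group agreed within sampling noise, and libraries of different groups were not compared in this way. Vector transcripts were not analysed here. Results of 1 signaling gene are not reported here.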

Additional observations from a re-analysis of the deposited data

Results flagged for a closer look

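In 15 of 156 tests of a member in a group of 4 livers, 1 liver stood far from the other 3 (Dixon's criterion, which chance meets in about 1 of 20), and groups of 3 livers were not tested. In PBS these were *Isg15* (33.8 CPM, lowest) and *Ifi27* (19.5 CPM, lowest) in replicate 3 and *Usp18* (31 CPM, highest) in replicate 4. In AAV9.empty, replicate 1 was highest for *Ifi44* (3.18 CPM), *Gbp2* (26.7 CPM), *Parp14* (43.5 CPM), *Dtx3l* (53.6 CPM) and *Adar* (62.2 CPM), and replicate 4 for *Gbp5* (6.02 CPM). In AAV9.EGFP, replicate 4 was highest for *Gbp7* (29.3 CPM), *Ifitm3* (284 CPM) and *Parp14* (38.7 CPM). In rAAV9-ST3GAL5.v2, replicate 2 was highest for *Gbp2* (17.5 CPM) and *Gbp3* (8.98 CPM) and replicate 1 lowest for *Parp14* (28.6 CPM).

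*Gbp2*, *Gbp5* and *Gbp7* were called higher for rAAV9-ST3GAL5.v1 and lower for the E332K vector against the same AAV9.empty livers. The difference between the vectors, tested directly, was 4.23, 4.03 and 2.99 on the log2 scale (adjusted p = 0.0232, 0.0369 and 0.0328, edgeR), and without replicate 2 of rAAV9-ST3GAL5.v1 it was 1.90, 1.43 and 1.25.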

How the results depend on the processing

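For the 58 calls of a member in a comparison, 376 of 483 tests in alternative fits kept the call and 107 lost it. With 1 liver left out, 275 of 391 tests kept it and 31 of the 58 calls were lost at least once. None reversed its direction. Relative to AAV9.empty, the 6 members called for rAAV9-ST3GAL5.v1 became 3 with DESeq2, 14 with no filter, 22 with all 6 groups in 1 fit, 1 with the replicate block, 1 on log2(TPM + 1), 2 on log2(TPM + 0.1), and 1 to 28 with 1 liver left out. The 27 for the E332K vector became 4 with all 6 groups in 1 fit and 13 with a 2-fold minimum, and 23 to 28 with 1 liver left out. The 1 for rAAV9-ST3GAL5.v2 became 0 with all 6 groups in 1 fit or a 2-fold minimum, and 1 to 4 with 1 liver left out. The 0 for AAV9.empty against PBS became 2 with DESeq2, 3 with no filter, 2 with the replicate block and 0 to 1 with 1 liver left out. The 16 between rAAV9-ST3GAL5.v1 and the E332K vector became 34 with no filter or all 6 groups in 1 fit, 2 on either TPM scale and 0 to 34 with 1 liver left out. The 8 against AAV9.EGFP became 4 with DESeq2, 17 with no filter, 25 with all 6 groups in 1 fit, 3 with the replicate block, 1 on log2(TPM + 1), 2 on log2(TPM + 0.1) and 2 to 27 with 1 liver left out. The causes were not tested, except that the all-group fit of the E332K vector gave 27 once the rAAV9-ST3GAL5.v1 livers were out. DESeq2 gave no adjusted p to some members, 23 of 39 having one when rAAV9-ST3GAL5.v1 was set against AAV9.empty. Of the 6 calls in that comparison DESeq2 could test 4 and lost 1. Of the 8 against AAV9.EGFP it could test 4 and lost 0, and of the 16 against the E332K vector it could test 12 and lost 2.

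By correlation, the replicate numbers showed no consistent pairing of the livers. Of 24 same-numbered pairs, 6 correlated above 0.1 (range −0.17 to 0.28) and 9 correlated best with their own number. In no comparison did every pair do either. Low correlations cannot show that same-numbered livers were unrelated. The block gave 24 lower members for the E332K vector, 1 for rAAV9-ST3GAL5.v2, 0 for AAV9.EGFP and 18 for the 2 *ST3GAL5* vectors with the CB promoter. On log2(TPM + 0.1), the median of all genes shifted by 0.12 for rAAV9-ST3GAL5.v1 and −0.12 for the E332K vector against AAV9.empty, by 0.21 between them and by 0.14 against AAV9.EGFP; relative to these shifts, the median member differed by 0.62, −0.83, 1.61 and 0.90. On log2(TPM + 1), the shift exceeded 0.1 only between the 2 vectors, at 0.14, and the median member differed by 1.44 relative to it. Depth left the interferon genes other than *Ifng* at 3 counts or fewer in every library.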
